A study of Capra hircus with 9 samples.

Results

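Mammary gland tissue of the dry period was compared with that of late lactation in 6 Laoshan dairy goats, 3 per stage, out of the 9 libraries of the series. The 3 dry period libraries (DP1, DP2 and DP3) came from goats at 300 days postpartum. The 3 late lactation libraries (LL1, LL2 and LL3) came from goats at 240 days postpartum. Libraries were assigned to a stage by their label alone, whereas the comparison was chosen with earlier results of these data known. The other 3 libraries, from late gestation at 140 days after mating (LG), entered only the scaling, the filter on low values and the estimate of the spread. All goats were healthy, were kept on 1 farm under the same management, were at parity 3 with a mean age of 4 years, and gave 1 library each from gland tissue taken at slaughter. The comparison asks which functions of the gland, leaving aside 12 PPAR genes and 5 genes of milk proteins, were lower or higher after milk secretion had ended.

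During lactation the alveolar epithelium takes up glucose, amino acids, fatty acids and minerals from blood, makes protein, lactose and fat, and exports them through the secretory pathway and as membrane-coated fat globules. In the dry period milk is no longer removed, the alveoli regress, and connective tissue and immune cells take up more of the gland before it is rebuilt for the next lactation. Bulk tissue gives 1 value per gene over all cells, so a smaller number of cells of a type and less RNA per cell cannot be told apart in any result here.

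Levels are FPKM, which relate the sequenced fragments of a gene to its length and to the library size. The table holds 23499 genes, of which 17489 to 17687 were above 0 in an LL library and 19001 to 19095 in a DP library. FPKM carry no read counts, so the depth behind each value is unknown and no counting error was attached to it. The libraries needed very different scaling factors, namely 0.498, 0.553 and 0.605 in LL and 1.53, 1.44 and 1.44 in DP, computed as the median ratio over 15905 genes. All levels below are FPKM divided by these factors unless they are called deposited, and log2 fold changes are DP minus LL on log2(scaled FPKM + 1), a scale that understates changes of low genes. Before scaling, the median of all genes tested lay 1.09 (log2) higher in DP than in LL, after upper-quartile scaling 0.16 higher, and after median-ratio scaling 0.0041.

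The stage labels were checked against 2 milk protein genes. CSN2, which encodes beta-casein, had 196724, 183531 and 137809 in LL and 20.3, 12.2 and 33.2 in DP. LALBA, which encodes alpha-lactalbumin, had 67505, 53769 and 25808 in LL and 4.53, 2.66 and 2.599 in DP. Every LL library was above every DP library for both genes, in the direction the labels give. Markers of luminal epithelium, the cell layer that lines alveoli and ducts, were present in both stages, and their summed level was 675, 752 and 701 in LL and 490.2, 766 and 565 in DP (log2 difference -0.25, exact permutation test, p = 0.4). With 3 libraries per stage this test cannot give a p below 0.1. The luminal sums of the stages overlapped, with DP2 above all LL libraries and DP1 lowest, and without scaling the DP sum was 1.17 (log2) higher.

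DP3 stood apart from DP1 and DP2 in connective tissue genes. The 14 fibroblast markers summed to 272, 279 and 409 in LL and 664, 1102 and 3195 in DP, so that DP3 exceeded DP1 and DP2 together while all DP libraries exceeded all LL libraries. DP1 stood apart in markers of T and NK cells, lymphocytes that include killer cells, which summed to 62.1, 51.2 and 47.7 in LL and 143, 81.5 and 59.9 in DP. Here DP1 and DP2 were above all LL libraries, whereas DP3 lay between LL1 and LL2.

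Of 14701 genes tested, 3321 were called different (22.6%), 2029 of them higher in DP (13.8%) and 1292 lower (8.79%). A gene was tested when it reached 0.5 deposited FPKM or more in 3 or more of the 9 libraries. It was called at an adjusted p under 0.05 (limma, Benjamini-Hochberg) with a log2 fold change of 1 or more in size. The cuts in FPKM for testing, for naming and for the gap described next were all read on deposited values. Given the scaling factors, the same cut is a higher scaled level in LL than in DP. Scaled LL means above 0.5 can therefore belong to genes counted as below the gap. Without scaling, 7979 genes were called higher and 369 lower, and with upper-quartile scaling 2432 higher and 1005 lower, so higher calls made up 95.6% and 70.8% of all calls, against 61.1% with the scaling used here.

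The deposited values have a gap that bears on the genes called higher. Only 9 genes had an LL mean between 0.5 and 1 FPKM, against 371 between 0.4 and 0.5 and 1676 between 1 and 1.5. In DP the same ranges held 618, 642 and 409 genes, and in LG 39, 416 and 828. In bins of 0.1, DP means also drop at 0.5 FPKM, from 642 genes below it to 47 from 0.5 to 0.6, but rise to 244 from 0.6 to 0.7, where LL has 2 and LG 6. Of the 2741 genes tested with an LL mean below 0.5 and a DP mean of 0.5 or more, 1511 were called higher (55.1%). Among the 11747 genes with a mean of 0.5 or more in both stages, 518 were called higher (4.41%) and 1195 lower (10.2%), and their median was -0.18; with scaling factors computed anew from these genes alone, 828 were called higher and 900 lower, with a median of -0.011. Thus 1511 of the 2029 higher calls are of genes on the low side of the gap in LL, a group that by its definition holds rises in DP, and the part of the gap in them was not tested. These genes needed DP or LG libraries to pass the filter. Their counts in the lists below stand against the 55.1%, and by themselves do not show that a function rose. Whether the deposited values were processed separately for each stage is not known and was not tested. Such processing could not be told apart from a difference between the stages. In the gene groups below, higher calls on the low side are counted or named where there were any, and the calls given as lost, under other settings or with 1 library left out, are those of the genes named. Without scaling, the adjusted p of a gene included the shift of 1.09 (log2) of all genes. A lower call of modest size could be lost there through the shift alone, so such a loss does not measure how firm the call is.

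**Figure D1:**
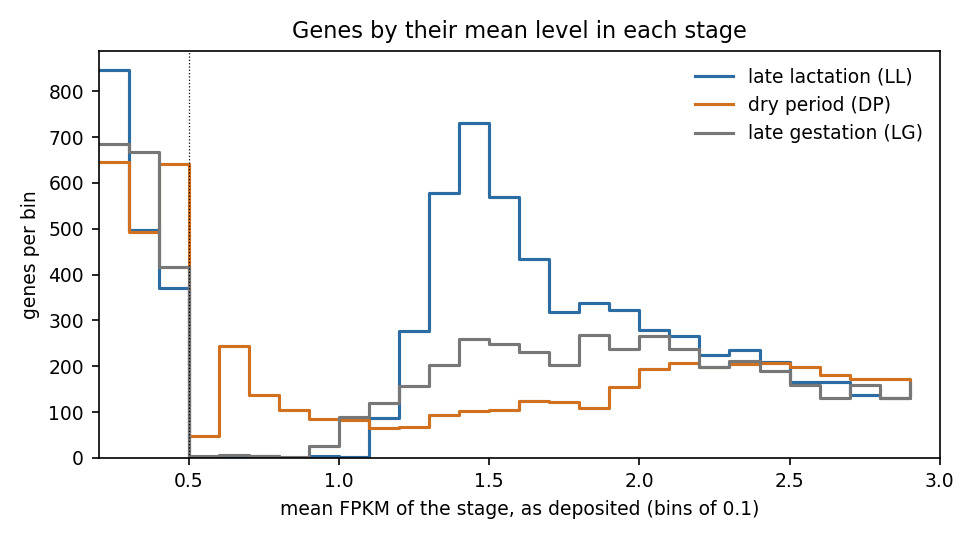
Number of genes (vertical axis) by the mean deposited FPKM of a stage (horizontal axis, bins of 0.1, shown from 0.2) in late lactation, the dry period and late gestation, 3 libraries each. The dotted line marks 0.5 FPKM, above which the LL curve holds 9 genes up to 1 FPKM and the DP curve 618.

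Neighbouring genes that share 1 value are common in the table. Among genes no more than 8 places apart on the same chromosome and strand, 1032 of 45822 pairs were equal, differed by a constant or lay on 1 line to within 1% of the range, which linked 625 genes in 233 groups. Some neighbours differ by 1 fixed set of amounts, as BAX and FTL do, whose deposited values differ by 1.0, 1.3 and 1.5 in LL and by 1.0, 1.5 and 1.5 in DP. When these amounts were allowed for, a choice made after seeing the data, 1568 pairs, 1506 genes and 646 groups were linked, the largest group holding 36 genes. No pair of 45158 on opposite strands was linked in this way. Linked genes hold 1 measurement between them, and the wider set is used below to mark them. Of the called genes, 278 were linked, 95 higher and 183 lower, and 3042 genes were called when all linked genes were left out. Of 1392 list members tested, 96 were linked, and not all of them are named below.

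Of the linked groups that hold 2 or more genes with a symbol, the 5 with the highest levels were the caseins CSN1S1, CSN1S2 and CSN3 with LOC102178810 on chromosome 6, RPL4 with SNAPC5, RPS18 with B3GALT4, RPS15A with ARL6IP1, and FASN with CCDC57. RPS18, a ribosomal protein gene, had deposited values of 384.38, 491.62 and 484.16 in LL and 639.59, 591.99 and 580.78 in DP. Its neighbour B3GALT4, a galactosyltransferase gene, had 383.38, 490.32 and 482.66 in LL and 638.59, 590.49 and 579.28 in DP. The 2 series of values run in parallel, although the genes have unrelated functions. FASN, the fatty acid synthase that builds the fatty acids of milk, had deposited values of 746.76, 532.39 and 373.4 in LL and 89.22, 61.18 and 56.33 in DP, and its neighbour CCDC57 had 744.84, 530.17 and 370.98 in LL and 87.3, 58.76 and 53.91 in DP. CCDC57 would thus count as a gene that fell in its own right were the link not seen. A separate irregularity is found on chromosome 10, where RPL36AL and DNAAF2 differed by 1, 1.3 and 1.5 deposited FPKM in LL1 to LL3 and by 1 in DP1 but by 100002 in both DP2 and DP3. With MGAT2 these genes held 39.6% to 44.0% of the summed FPKM of an LL library and 51.4% to 56.3% of a DP library, and no result here rests on them.

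Lists of secretory functions mostly had medians below that of all genes, and most lists of connective tissue and immune cells had medians above it. Of 52 lists of genes, 1 of which had no member that could be tested, each described by the number of its members called and by its median log2 fold change, 28 had a median above that of all genes tested. The largest falls were in the lists for triglyceride synthesis and fat globules, cholesterol synthesis, and glucose uptake and lactose, and the largest rises in those for stromal proteoglycans, matrix proteases and collagens, apart from the fibroblast markers. Every count of members called below stands against 13.8% called higher and 8.79% called lower over all genes tested.

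**Figure D2:**
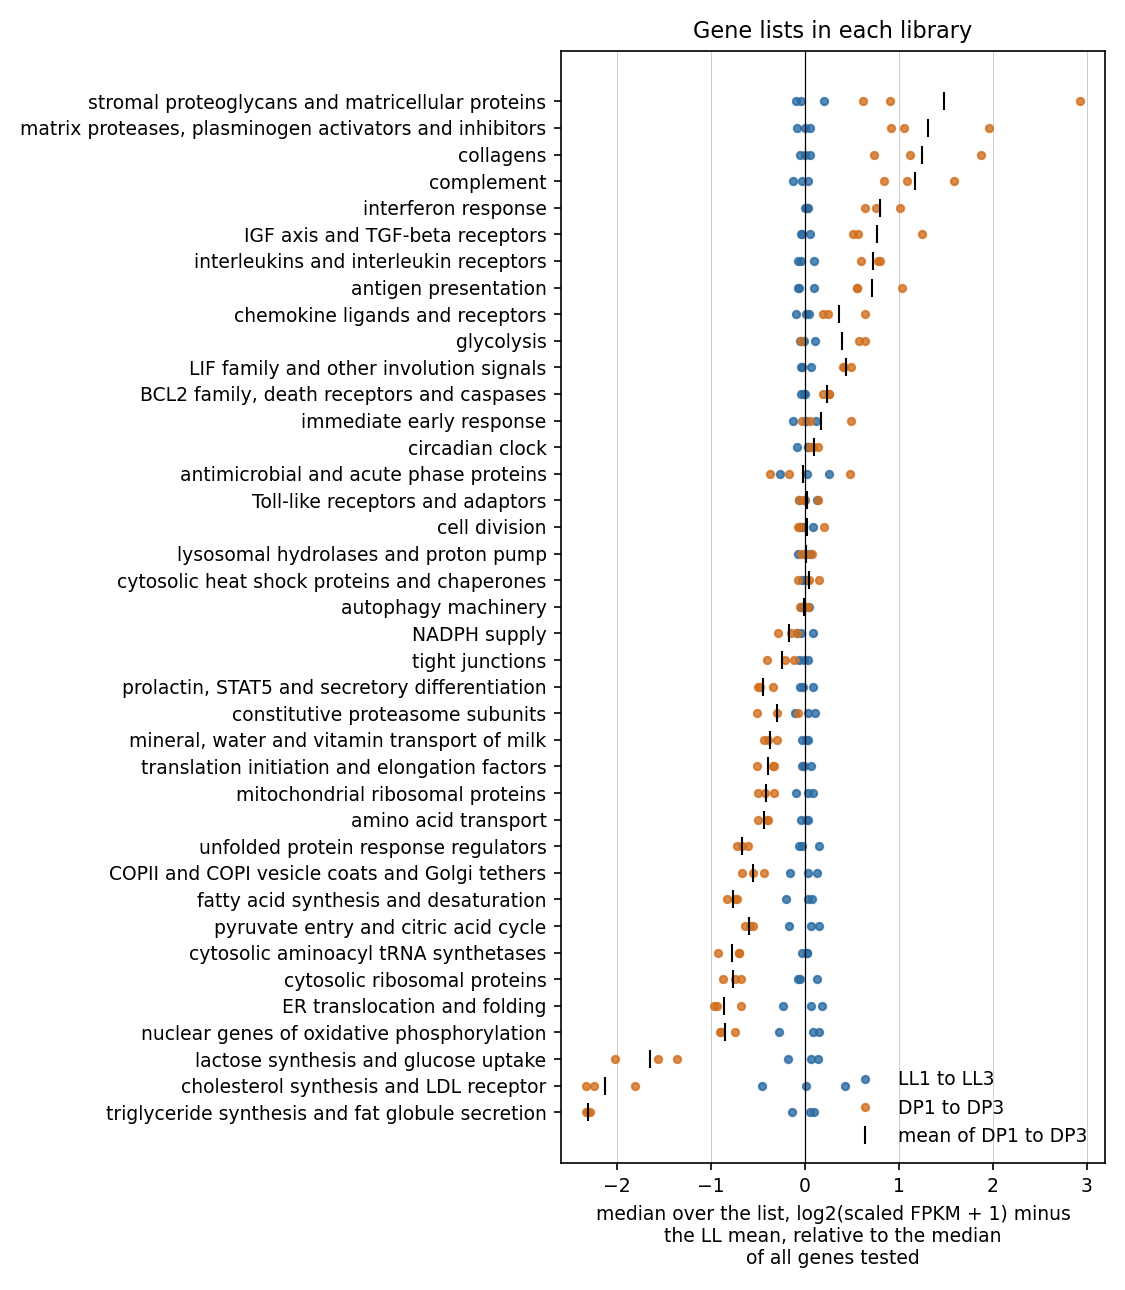
Median over each gene list in each library (horizontal axis, log2(scaled FPKM + 1) minus the mean of LL, relative to the median of all genes tested) for the 39 lists that are not cell type markers; blue points are LL1 to LL3, orange points DP1 to DP3 and black ticks the mean of DP. The DP3 point lies far to the right of DP1 and DP2 in the stromal proteoglycan, protease and collagen lists, and in most lists below 0 the DP points lie to the left of all LL points.

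Genes of glucose entry were among those that fell. Milk sugar is made from glucose that transporters bring into the cell, and 13 of 21 genes for glucose uptake and lactose synthesis were called lower and 1 higher, with a median of -1.42. Of the 13 called lower, 11 were not linked to a neighbour. The number called higher was 4 without DP1, 3 without LL1, 2 without LL3 and 0 without DP3. SLC2A4 (chromosome 19, 26795774 to 26800743), which encodes the insulin-responsive glucose transporter GLUT4, had 1126, 1044 and 824 in LL and 26.99, 35.6 and 29.1 in DP (log2 fold change -4.98, standard error 0.18, adjusted p = 1.22e-07). SLC2A8, a transporter of internal membranes, had 103, 94.6 and 87.3 in LL and 3.004, 3.601 and 3.09 in DP (log2 fold change -4.5, standard error 0.13, adjusted p = 3.64e-08). The lowest LL library was above the highest DP library many times over in both genes. SLC5A1, the sodium-coupled glucose transporter, had 37.5, 28.3 and 14.4 in LL and 1.66, 0.527 and 0.257 in DP, and SLC2A10 had 83.7, 87.2 and 67.4 in LL and 4.41, 9.58 and 10.4 in DP, again without overlap (-3.91 and -3.2). HK2, a hexokinase that traps glucose in the cell, was the member called higher, with 0.743, 0.669 and 0.3799 in LL and 1.02, 2.71 and 5.26 in DP (1.18), on the low side of the gap in LL. Calls were lost for HK2 without scaling, HK2 with quantile normalization, HK2 with a pseudocount of 5 and HK2 without DP3.

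Triglyceride synthesis and the fat globule coat had the lowest median of all lists. Of 24 genes for triglyceride synthesis and globule secretion, 14 were called lower and none higher, with a median of -2.3. BTN1A1 (chromosome 23, 18384020 to 18391213), the butyrophilin of the globule membrane, had 3059, 2614 and 2031 in LL and 0.242, 0.222 and 0.174 in DP (log2 fold change -11.03, standard error 0.29, adjusted p = 2.16e-08). XDH, the enzyme and structural protein that binds butyrophilin at the globule, had 1158, 925 and 679 in LL and 22.2, 25.03 and 20.9 in DP (log2 fold change -5.25, standard error 0.21, adjusted p = 2.95e-07), and CIDEA, which acts on lipid droplets, had 345, 393 and 255 in LL and 1.03, 1.12 and 2.61 in DP (-7.03). BTN1A1 was thus near 0 in each DP library, whereas XDH stayed above 20. MUC15, a mucin of the globule membrane, had 82.2, 131 and 98.8 in LL and 2.94, 3.802 and 1.01 in DP (-4.94). Of 25 genes for fatty acid synthesis and desaturation, 10 were called lower and 1 higher (median -0.56). SCD (chromosome 26, 30404780 to 30415917), the desaturase that makes oleic acid, had 704, 1539 and 817 in LL and 8.998, 4.55 and 5.69 in DP (log2 fold change -7.06, standard error 0.54, adjusted p = 9.94e-06). FASN, whose values are linked to those of CCDC57, had 1500.3, 962 and 617 in LL and 58.4, 42.4 and 39.1 in DP (-4.36), FADS1, a desaturase of polyunsaturated fatty acids, had 57.1, 42.2 and 39.9 in LL and 1.68, 1.35 and 2.47 in DP (-4.07), and BDH1, which acts on ketone bodies, had 33.5, 42.4 and 12.9 in LL and 1.61, 0.8602 and 0.667 in DP (-3.78). All LL libraries were above all DP libraries in these genes. ACLY, which makes cytosolic acetyl-CoA from citrate, moved the other way, with 5.81, 5.93 and 4.67 in LL and 12.6, 10.05 and 15.04 in DP (1.06), and no library of a stage overlapped with the other. Of the genes named here, calls ended for ACLY with a pseudocount of 5, ACLY without DP3 and ACLY without LL3.

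Most genes of cholesterol synthesis were lower, with 17 of 23 genes called lower, 1 higher and a median of -2.1. MSMO1 (chromosome 17, 69190106 to 69207149), which removes methyl groups from the sterol ring, had 119, 191 and 83.9 in LL and 8.98, 7.95 and 9.75 in DP (log2 fold change -3.67, standard error 0.3, adjusted p = 1.47e-05). TM7SF2 and DHCR7, which reduce double bonds of intermediate sterols, were lower by the same pattern, with log2 fold changes of -3.57 and -2.59. The LL libraries of MSMO1 and TM7SF2 were alike in that LL3 was lowest, yet LL3 was still far above each DP library. The 1 member called higher was MYLIP, a ubiquitin ligase that marks the LDL receptor for breakdown, with 8.02, 7.57 and 9.71 in LL and 19.1, 20.7 and 21.2 in DP (1.18), a call lost for MYLIP with a pseudocount of 5.

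Transporters of amino acids and minerals changed in part. Of 27 amino acid transporter genes, 9 were called lower and 2 higher (median -0.4). SLC7A4 had 154, 197 and 109 in LL and 1.29, 1.05 and 0.646 in DP (log2 fold change -6.25, standard error 0.26, adjusted p = 3.50e-07), and SLC1A1, a glutamate carrier, had 74.2, 69.3 and 54.04 in LL and 2.696, 2.16 and 1.65 in DP (-4.4). SLC6A14, a carrier of neutral and cationic amino acids, and SLC7A5, which exchanges large neutral amino acids, were also lower without overlap (-3.33 and -2.93). SLC38A7 and SLC43A2 were called higher (1.3 and 1.02), the first on the low side of the gap. Of 38 genes for minerals, water and vitamins, 10 were called lower and 3 higher (median -0.34), 2 of the latter from below the gap. ATP2C2 (chromosome 18, 12000229 to 12079250), the calcium and manganese pump of the secretory pathway, had 151, 179.6 and 136 in LL and 0.615, 0.715 and 0.354 in DP (log2 fold change -6.64, standard error 0.18, adjusted p = 2.57e-08). SLC34A2, the epithelial phosphate carrier, had 61.7, 70.99 and 35.03 in LL and 0.419, 0.0555 and 0.0834 in DP (-5.54), and SLC39A8, a carrier of zinc and manganese, had 200.04, 245 and 131 in LL and 7.94, 7.395 and 11.2 in DP (-4.27). These genes were near 0 or at a small part of their LL level in each DP library. Water channels parted, in that AQP3 of epithelium had 23.1, 24.2 and 12.5 in LL and 0.982, 0.964 and 0.639 in DP (-3.44), while AQP1, which is typical of vessels, had 45.4, 47.6 and 55.05 in LL and 89.7, 119.9 and 173 in DP (1.3). ATP2B4, a calcium pump of the plasma membrane, was called higher (1.6) from an LL mean on the low side of the gap. Calls were not kept for SLC38A7 and SLC43A2 without scaling, SLC38A7, SLC43A2 and ATP2B4 with a pseudocount of 5 and SLC43A2 without DP3.

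Prolactin signalling and the factors of secretory differentiation had 6 of 25 members called lower, 1 higher and a median of -0.32. The share called lower, 24%, compares with 8.79% of all genes. ELF5 (chromosome 15, 17861190 to 17911966), the transcription factor that drives alveolar differentiation, had 673, 676 and 439.8 in LL and 25.8, 44.2 and 26.1 in DP (log2 fold change -4.19, standard error 0.25, adjusted p = 3.13e-06). EHF, an epithelial factor of the same family, had 112, 111 and 218 in LL and 69.3, 60.3 and 39.1 in DP (-1.33). The kinases AKT1 and AKT2, which act downstream of insulin and prolactin, were lower by -1.43 and -1.3 (log2), and FOXA1, a factor of ductal luminal cells, was called higher (1.23) from below the gap. ELF5 and AKT1 had no overlap between the stages, and the calls that were lost were those of EHF, AKT1, AKT2 and FOXA1 without scaling, EHF with quantile normalization, AKT2 and FOXA1 with a pseudocount of 5 and FOXA1 without DP1.

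Many genes of the endoplasmic reticulum, where nascent milk proteins enter and fold, were lower. Of 64 genes for translocation and folding there, 28 were called lower and 1 higher (median -0.82). SEC11C (chromosome 24, 58346141 to 58358162), a catalytic subunit of signal peptidase, had 181, 155 and 112 in LL and 12.3, 11.8 and 13.8 in DP (log2 fold change -3.44, standard error 0.19, adjusted p = 1.94e-06). SSR4, a subunit of the translocon-associated complex, had 416, 477 and 362 in LL and 85.7, 84.2 and 96.7 in DP (-2.21). In both genes the DP libraries lay close together and far below LL. SYVN1, a ubiquitin ligase that clears misfolded proteins, and SDF2L1, a cofactor of chaperones, were lower by the same order (-2.51 and -2.31), and ERO1B, an oxidase that forms disulfide bonds, was called higher (1.64) from below the gap. Regulators of the unfolded protein response, which adjusts folding capacity to load, had 8 of 18 members called lower and none higher (median -0.52). ATF4, the transcription factor of its PERK branch, had 132, 134 and 133 in LL and 34.5, 32.5 and 43.3 in DP (log2 fold change -1.84, standard error 0.24, adjusted p = 0.000174). Its known targets TRIB3, ASNS and CHAC1 had log2 fold changes of -3.94, -2.96 and -2.15. ASNS, which makes asparagine, had 31.4, 34.2 and 27.9 in LL and 2.15, 3.43 and 4.03 in DP, so its stages lay far apart. Coats and tethers of transport vesicles had 7 of 39 members called lower and none higher (median -0.54), among them the cargo receptors TMED2 (-1.53), TMED3 (-1.59) and LMAN1 (-1.32). The share of coat and tether genes called lower, 17.9%, compares with 8.79% of all genes. With a pseudocount of 5, 5 regulators and 4 coat and tether genes were called lower, and 3 of the latter in the fit of genes with 0.5 FPKM or more in both stages. Settings that ended a call in this group were those for ATF4, TMED2, TMED3 and LMAN1 without scaling, TMED2 and LMAN1 with quantile normalization and ERO1B and CHAC1 with a pseudocount of 5.

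Genes of translation itself were lower in part. Cytosolic tRNA synthetases, which load amino acids onto tRNA, had 7 of 22 members called lower and none higher (median -0.68), led by YARS with 37.99, 39.2 and 33.5 in LL and 6.45, 9.12 and 10.1 in DP (-2.0) and GARS with 33.8, 40.04 and 46.99 in LL and 6.43, 10.6 and 12.9 in DP (-1.95). CARS and WARS followed (-1.56 and -1.52), each with all LL libraries above all DP libraries. Initiation and elongation factors had 6 of 57 members called lower and 1 higher, and the 10.5% called lower compare with 8.79% of all genes. Relative to all genes, their median of -0.39 became 0.01 with quantile normalization. EIF2S2, a subunit of the factor that brings the initiator tRNA, had 52.1, 62.1 and 53.6 in LL and 14.1, 15.7 and 20.5 in DP (-1.69), and EIF1 had 111, 173 and 141 in LL and 32.1, 46.8 and 48.3 in DP (-1.72). EEF2, the factor that moves the ribosome along, had 422, 505 and 429 in LL and 190.1, 227 and 217 in DP (-1.09), EIF4EBP1, a repressor of cap-dependent initiation linked to its neighbour ASH2L, was lower by -1.33 (log2), and EIF5A2 was higher (1.74) from below the gap. Cytosolic ribosomal proteins had 11 of 80 members called lower and none higher, but their median relative to all genes turned from -0.76 to 0.22 with quantile normalization, so the direction of this family depends on the scaling. The share called lower, 13.75%, compares with 8.79% of all genes. The number of ribosomal protein genes called lower was 17 without LL1, 17 without LL3 and 3 in the fit of genes with 0.5 FPKM or more in both stages, which left 3 of the translation factors. RPL13A had 1326, 1596 and 1394 in LL and 658, 667 and 617 in DP (-1.15), and its change too was above 0 with quantile normalization (0.22). RPS10 and RPL28 were also among those called lower (-1.31 and -1.22), and RPL7, which is linked to C14H8orf89, had the largest fall of the list (-2.98). The calls that ended here were those of GARS, CARS, WARS, EIF2S2, EIF1, EEF2, EIF4EBP1, RPL13A, RPS10 and RPL28 without scaling, EEF2, EIF4EBP1, RPL13A, RPS10 and RPL28 with quantile normalization, EEF2 and RPL13A with upper-quartile scaling, EIF5A2 with a pseudocount of 5 and EEF2 and RPL13A when only genes with a mean of 0.5 FPKM or more in both stages were fitted.

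Some genes of mitochondrial energy supply were called lower. All 58 nuclear genes of oxidative phosphorylation had a log2 fold change below 0, and the median was -0.9. Of these genes 22 were called lower (37.9%, against 8.79% of all genes), and 20 of the 22 were not linked to a neighbour. Relative to all genes the median stayed below 0 without scaling (-0.63) and with quantile normalization (-0.51). NDUFA4, a respiratory chain subunit, had 98.7, 108 and 78.2 in LL and 20.3, 21.1 and 24.99 in DP (log2 fold change -2.04, standard error 0.17, adjusted p = 1.65e-05), with every DP library at a fraction of every LL library. ATP5L and ATP5J2, subunits of the ATP synthase, and SDHA, the flavoprotein of succinate dehydrogenase, were lower by -1.49, -1.38 and -1.37 (log2). Pyruvate entry and the citric acid cycle had 7 of 30 members called lower and 1 higher (median -0.64). Of the 7 called lower, CS and SDHD share values with neighbours, and 5 were not linked. Both subunits of the mitochondrial pyruvate carrier fell furthest, MPC2 (chromosome 3, 119316704 to 119344053) with 125, 148 and 61.4 in LL and 6.23, 6.85 and 6.67 in DP (log2 fold change -3.8, standard error 0.28, adjusted p = 8.82e-06) and MPC1 with 207, 181 and 142 in LL and 21.03, 18.6 and 17.5 in DP (log2 fold change -3.13, standard error 0.21, adjusted p = 5.59e-06). Their DP libraries were nearly equal to each other and below every LL library. PDK3, a kinase that shuts off pyruvate dehydrogenase, was the member called higher (1.42), from below the gap, and SUCLG2, a subunit of a succinate-CoA ligase, was called lower (-1.06). Glycolysis had 3 of 21 members called lower, 2 higher, 1 of them from below the gap, and a median of 0.46, or 0.24 without DP3. The number of glycolysis genes called higher was 4 without DP1 and 1 without DP3. The shares, 14.3% lower and 9.52% higher, compare with 8.79% and 13.8% of all genes. SLC16A1, the monocarboxylate carrier, had 40.8, 60.2 and 35.7 in LL and 2.34, 4.31 and 4.72 in DP (-3.28), GAPDH had 334, 305 and 292 in LL and 115, 126 and 131 in DP (-1.32) and LDHB, a lactate dehydrogenase subunit, was lower by -1.09 (log2), while PFKP, a phosphofructokinase isoform, had 5.95, 4.92 and 6.08 in LL and 9.96, 19.2 and 26.2 in DP (1.46). SLC16A1 and GAPDH were thus highest in all LL libraries and PFKP in all DP libraries. Of 15 genes that supply NADPH, 4 were called lower (26.7%, against 8.79% of all genes) and none higher (median -0.2). They were TKT and PGD of the pentose phosphate pathway (-2.71 and -1.33), IDH1 (-1.86) and MTHFD2 (-1.12). Mitochondrial ribosomal proteins had 5 of 76 members called lower and 1 higher (median -0.39), and 9 lower without LL3 and 1 with a pseudocount of 5. The share called lower, 6.58%, is below the 8.79% of all genes, and the member called higher, MRPL52, shares its values with the protease gene MMP14. No proteasome subunit of 35 was called by limma (median relative to all genes -0.33, and 0.07 with quantile normalization), and 14 had an unadjusted p under 0.05. With a pseudocount of 5, and also in the fit of genes with 0.5 FPKM or more in both stages, 11 genes of oxidative phosphorylation and 3 of pyruvate entry and the cycle were called lower, and 4 of the latter without LL2. In the energy group, calls were lost for ATP5L, ATP5J2, SDHA, PDK3, SUCLG2, GAPDH, LDHB, PGD, IDH1 and MTHFD2 without scaling, ATP5L, ATP5J2, SDHA, SUCLG2, GAPDH, LDHB, PGD and MTHFD2 with quantile normalization, SUCLG2, LDHB and MTHFD2 with upper-quartile scaling, PDK3, SUCLG2 and MTHFD2 with a pseudocount of 5, SUCLG2, LDHB and MTHFD2 when only genes with a mean of 0.5 FPKM or more in both stages were fitted, MTHFD2 without DP1, SUCLG2 and LDHB without DP3 and LDHB and MTHFD2 without LL2.

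Several caspase genes were lower in the dry gland. The list of the BCL2 family, death receptors and caspases had 8 of 36 members called lower and 6 higher, with a median of 0.28, and 5 of the higher calls lay below the gap in LL. The shares, 22.2% lower and 16.7% higher, compare with 8.79% and 13.8% of all genes. With a pseudocount of 5 none was called higher, and 3 of 30 were in the fit of genes with 0.5 FPKM or more in both stages. With the scaling factors of all genes, 1 of the same 30 was called higher, against 4.41% of all such genes. CASP6, an executioner caspase, had 107, 179.8 and 147 in LL and 10.2, 7.67 and 5.77 in DP (log2 fold change -4.03, standard error 0.24, adjusted p = 2.94e-06). CASP8, the initiator caspase of death receptors, had 189, 115 and 106 in LL and 9.88, 9.43 and 14.9 in DP (-3.45), and CASP9, that of the mitochondrial route, had 31.1, 34.1 and 29.5 in LL and 2.72, 1.94 and 1.26 in DP (-3.48). In these 3 caspases each LL library was above each DP library by a wide margin. RIPK3, a kinase of necroptosis, and BOK, a pore-forming member of the BCL2 family, were called higher from LL means below the gap (2.11 and 2.06). The autophagy list had 5 of 39 members called lower and 3 higher, all 3 from below the gap (median 0.01). The shares, 12.8% lower and 7.69% higher, compare with 8.79% and 13.8% of all genes. ATG12, which is conjugated in building the autophagosome, had 33.8, 31.1 and 16.8 in LL and 7.13, 6.57 and 6.06 in DP (-1.84), and the cargo receptors CALCOCO2 and TAX1BP1 were lower by -1.39 and -1.34 (log2), while ULK1, the kinase that starts the process, and ATG16L2 were higher (1.32 and 1.72). Lysosomal genes had 10 of 66 members called higher, 3 of them from below the gap, 1 lower and a median of 0.04, which fell to -0.07 without LL3. The share called higher, 15.2%, compares with 13.8% of all genes, and with a pseudocount of 5 the number was 4. Among those called higher were the cathepsin genes CTSC with 4.96, 3.87 and 7.56 in LL and 15.3, 16.9 and 21.3 in DP (1.57) and CTSH with 22.9, 18.6 and 26.4 in LL and 51.6, 76.1 and 55.3 in DP (1.38). The stages did not overlap in either gene. TFEB, the transcription factor of lysosomal genes, was higher (1.63) from below the gap, and NPC1, a cholesterol exporter linked to LOC108633789, was lower (-1.11). Calls ended for CALCOCO2, TAX1BP1, ULK1 and NPC1 without scaling, CALCOCO2, TAX1BP1 and NPC1 with quantile normalization, NPC1 with upper-quartile scaling, RIPK3, BOK, ULK1, ATG16L2, TFEB and NPC1 with a pseudocount of 5, NPC1 when only genes with a mean of 0.5 FPKM or more in both stages were fitted and NPC1 without DP1.

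Tight junctions, which seal alveoli during lactation, had 3 of 24 members called lower and 1 higher (median -0.22), and 1 lower without DP3, without LL2 or with a pseudocount of 5. The shares, 12.5% lower and 4.17% higher, compare with 8.79% and 13.8% of all genes. JAM3, an adhesion molecule of the junction, had 49.6, 52.1 and 32.7 in LL and 8.49, 13.1 and 16.7 in DP (-1.75), and OCLN, the occludin gene, had 24.5, 28.4 and 20.5 in LL and 14.4, 14.1 and 6.25 in DP (-1.08). CLDN12 was higher (1.41) from below the gap. JAM3 and OCLN did not overlap between the stages, and calls were lost for JAM3, OCLN and CLDN12 without scaling, OCLN with quantile normalization, OCLN with upper-quartile scaling, OCLN and CLDN12 with a pseudocount of 5, OCLN when only genes with a mean of 0.5 FPKM or more in both stages were fitted, OCLN without DP3 and OCLN without LL2.

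Some genes of secreted proteins with roles in defence were lower, but they come from several lists or from the largest changes and were not counted as a group. GLYCAM1 (chromosome 5, 25217300 to 25220219), a small mucin-like milk glycoprotein, had 5755, 5584 and 6103 in LL and 0.648, 0.659 and 0.3405 in DP (log2 fold change -11.88, standard error 0.37, adjusted p = 4.91e-08). PIGR (chromosome 16, 4079229 to 4097210), the receptor that carries polymeric immunoglobulins into milk, had 988, 720.3 and 737 in LL and 12.01, 1.55 and 0.632 in DP (log2 fold change -7.74, standard error 0.68, adjusted p = 1.94e-05). JCHAIN, the chain that joins those immunoglobulins and is made by plasma cells, had 832, 491 and 189 in LL and 106, 135 and 37.6 in DP (-2.37). Every LL library was above every DP library in these genes, although JCHAIN varied several-fold among LL libraries. LPO, lactoperoxidase, had 297, 107 and 151 in LL and 0.0654, 0.0486 and 0.0208 in DP (log2 fold change -7.34, standard error 0.29, adjusted p = 2.95e-07), and LTF, the iron-binding lactoferrin of milk and neutrophils, had 1579, 999 and 2087 in LL and 163, 83.5 and 179.5 in DP (-3.46). PGLYRP1, which binds bacterial peptidoglycan, had 35.2, 205 and 89.04 in LL and 11.2, 5.51 and 3.35 in DP (-3.64), LCN2, which binds bacterial iron carriers, was lower by -2.46 (log2), and SFTPD, a collectin of mucosal surfaces, had 54.7, 69.2 and 30.4 in LL and 0.0131, 0 and 0.0347 in DP (-5.61). DP values of LPO and SFTPD were near 0 in all 3 libraries, and neither gene could be tested with an LL library left out. In the fixed list of antimicrobial and acute phase proteins, 3 of 11 members were called lower and none higher, and the median was 0.18, or -0.37 without DP1. Other genes with the largest falls were PAEP, the beta-lactoglobulin gene, which is outside the 5 milk protein genes left out, with 78205, 85677 and 71885 in LL and 276, 224 and 393 in DP (-8.08), CRISP3 with 403, 159 and 27.3 in LL and 0.1701, 0.943 and 0.181 in DP (-6.46), CD24, a glycoprotein of epithelial cell surfaces, with 1120.2, 1079.6 and 929.9 in LL and 28.6, 18.03 and 7.14 in DP (-5.97), and AZGP1 with 25.7, 133 and 108 in LL and 0.576, 0.208 and 0.514 in DP (-5.68). PAEP kept a clear level in every DP library, unlike most other secreted proteins here, and CRISP3 varied most among LL libraries. Calls ended for JCHAIN without scaling and JCHAIN with quantile normalization.

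**Figure D3:**
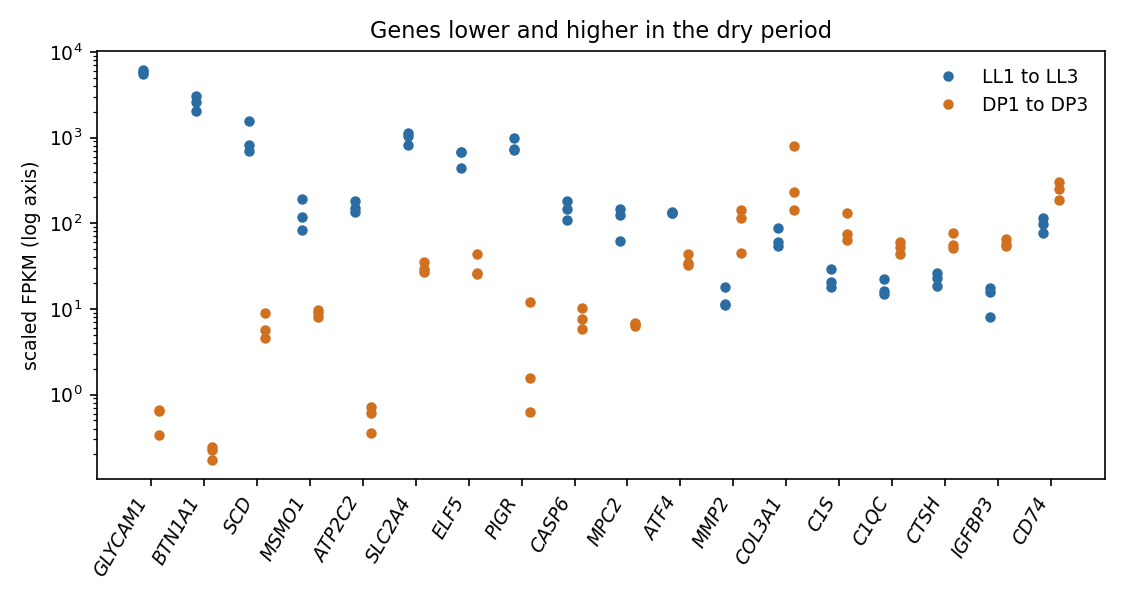
Scaled FPKM (vertical log axis) of 18 genes named in the text in each of 3 LL libraries (blue) and 3 DP libraries (orange). The first 11 genes are lower in all DP libraries and the last 7 higher, and GLYCAM1 and BTN1A1 span the widest range.

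Many extracellular matrix genes were higher, most of all in DP3. Fibroblasts make collagen fibres and the proteoglycans around them, and 17 of 30 collagen genes were called higher and none lower (median 1.34), 5 of them from below the gap. Without DP3, 13 of 30 were called higher (median 0.9), and 10 were with a pseudocount of 5. Of the 18 with a mean of 0.5 FPKM or more in both stages, 12 were called higher, against 4.41% of all such genes. COL1A1, a chain of the main fibre collagen, had 15.1, 16.9 and 26.4 in LL and 35.6, 88.2 and 330.2 in DP (log2 fold change 2.37, standard error 0.68, adjusted p = 0.0148), and COL3A1 (chromosome 2, 129111216 to 129151444), the chain of reticular fibres, had 60.4, 54.5 and 88.4 in LL and 143, 233 and 799 in DP (log2 fold change 2.16, standard error 0.53, adjusted p = 0.007204). Both were above LL in each DP library, with DP3 far above DP1 and DP2, and without DP3 their log2 fold changes were 1.52 and 1.45. COL1A2, the partner of COL1A1, had 2.29 (without DP3 1.46). COL8A2, a short-chain collagen, had 0.121, 0.253 and 0.363 in LL and 3.49, 2.497 and 23.8 in DP (2.56, and 1.64 without DP3), from below the gap. Stromal proteoglycans and matricellular proteins had 20 of 42 members called higher and 2 lower (median 1.46), 4 of the former from below the gap, and without DP3 16 of 40 were higher and 3 lower (median 0.77). Without LL1, 13 of 42 were higher, and 13 were without LL2. POSTN (chromosome 12, 62423932 to 62458253), periostin, had 1.57, 4.302 and 7.05 in LL and 32.7, 42.9 and 34.4 in DP (log2 fold change 2.97, standard error 0.55, adjusted p = 0.00169), a rise in which DP3 did not stand out. MFAP4, a microfibril protein, had 8.38, 9.44 and 12.01 in LL and 37.98, 50.6 and 108 in DP (2.48, and 2.04 without DP3), MFAP2, of the same fibres, had 0.522, 0.307 and 0.595 in LL and 3.98, 15.8 and 10.5 in DP (2.75, from below the gap), and NOV, a matricellular growth regulator, had 1.77, 2.35 and 4.13 in LL and 4.32, 19.3 and 76.7 in DP (2.49, and 1.51 without DP3). MFAP4 and NOV were highest in DP3, and MFAP2 in DP2. The 2 members called lower were SDC2, a cell surface proteoglycan, with 121, 119 and 122 in LL and 6.06, 8.19 and 10.4 in DP (-3.74), and FBLN5, of elastic fibres (-1.33), and both hold a value linked to a neighbour, LOC108637514 and TC2N. Calls were lost for FBLN5 without scaling, FBLN5 with quantile normalization, NOV without LL1 and NOV without LL2.

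Proteases that act on the matrix, with their inhibitors, had 19 of 34 members called higher and none lower (median 1.37), 10 of them from below the gap. MMP14, which shares its values with MRPL52, was among the 19, and 18 were not linked. Without DP3 the count was 16 of 31 (median 1.0), it was 8 with a pseudocount of 5, and in the fit of genes with 0.5 FPKM or more in both stages 12 of 20. With the scaling factors of all genes, 9 of the same 20 were called higher, against 4.41% of all such genes. MMP2 (chromosome 18, 25127061 to 25154299), a gelatinase of stromal cells, had 11.2, 11.4 and 17.8 in LL and 45.2, 143 and 114 in DP (log2 fold change 2.69, standard error 0.38, adjusted p = 0.0003098). It was higher in DP2 and DP3 than in DP1, and higher in each of them than in all LL libraries. HTRA3, a secreted serine protease, had 0.181, 0.0904 and 0.132 in LL and 9.29, 5.38 and 8.4001 in DP (2.91), from below the gap. ADAMTS2, which trims procollagen, ADAMTS4, which cuts proteoglycans, and ADAMTS15 were also on the low side in LL, with log2 fold changes of 2.58, 2.48 and 2.22, or 1.92, 1.51 and 1.73 without DP3. Growth factor genes of the IGF axis and the TGF-beta receptors had 9 of 27 members called higher and none lower (median 0.81), 1 of them from below the gap, and without DP3 7 of 26 were higher and 1 lower (median 0.62). IGFBP3, a carrier of insulin-like growth factors, had 15.8, 8.12 and 17.7 in LL and 57.1, 53.7 and 65.4 in DP (log2 fold change 2.07, standard error 0.25, adjusted p = 0.000134), with the DP libraries close together. IGFBP4, another carrier, had 7.37, 9.09 and 12.7 in LL and 20.4, 24.3 and 67.7 in DP (1.67, and 1.15 without DP3), and LTBP3 and LTBP2, which bind latent TGF-beta, rose by 1.65 and 2.2 (log2), the latter from below the gap, and without DP3 the change of LTBP3 was 1.21, while LTBP2 did not reach the level for testing. Of 23 other signals linked to involution, 4 were called higher and 2 lower (median 0.42), or 17.4% and 8.696%, against 13.8% and 8.79% of all genes. IL6, TGFB1, TGFB3 and SOCS3 were the higher ones (1.86, 1.67, 1.66 and 1.65), the first pair from below the gap, whereas IGFBP5, the carrier known from the onset of involution, had 68.1, 71.4 and 55.4 in LL and 11.6, 17.4 and 16.96 in DP (-2.03) and LIFR, the receptor of leukaemia inhibitory factor, was lower by -1.08 (log2). IGFBP5 was thus lower in all DP libraries than in all LL libraries. Calls were lost for LIFR without scaling, LIFR with quantile normalization, LIFR with upper-quartile scaling, ADAMTS15, IL6, TGFB1 and LIFR with a pseudocount of 5, LIFR when only genes with a mean of 0.5 FPKM or more in both stages were fitted and LIFR without DP3.

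Complement and antigen presentation held more genes called higher than lower. The complement list had 12 of 23 members called higher and 2 lower (median 1.23), 3 of the former from below the gap. C1S (chromosome 5, 102333534 to 102344868), a protease that starts the classical pathway, had 17.8, 20.7 and 29.2 in LL and 75.7, 63.8 and 132 in DP (log2 fold change 1.91, standard error 0.29, adjusted p = 0.000504), and its partner C1R, linked to LOC102188569, rose by 1.86 (log2). CFI, which inactivates complement, had 4.36, 3.001 and 7.78 in LL and 32.3, 15.3 and 35.004 in DP (2.23), and VSIG4, a complement receptor of macrophages, was higher by 1.66 (log2) from below the gap. The members called lower were terminal components, C9 with 73.9, 85.6 and 51.6 in LL and 0.196, 0.194 and 0.132 in DP (log2 fold change -5.9, standard error 0.17, adjusted p = 2.94e-08) and C5 with 6.39, 4.37 and 4.31 in LL and 0.0589, 0.0763 and 0.0695 in DP (-2.48), both near 0 in DP. Thus C9 and C5 were above DP in each LL library, and C1S and CFI above LL in each DP library. Antigen presentation had 7 of 24 members called higher and 1 lower (median 0.73), 3 of the former from below the gap, and without DP1 5 were higher (median 0.56). The share called higher, 29.2%, compares with 13.8% of all genes. CD74, the invariant chain of MHC class II, had 115, 96.5 and 76.4 in LL and 307, 249.7 and 187 in DP (log2 fold change 1.35, standard error 0.22, adjusted p = 0.000866), and CIITA, the switch of class II genes, its partner RFX5 and NLRC5, the switch of class I genes, rose from below the gap (1.86, 1.64 and 1.52). With a pseudocount of 5, 7 complement genes and 3 genes of antigen presentation were called higher. B2M, the light chain of class I, was called lower with 2953, 2627 and 2314 in LL and 1534, 1028 and 913 in DP (-1.21), but its change was 4.07 with quantile normalization. Calls were lost for NLRC5 and B2M without scaling, B2M with quantile normalization and VSIG4, C5, CIITA, RFX5 and NLRC5 with a pseudocount of 5.

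Immune cell markers and signals were higher in part, many of those called from low levels in LL. Macrophage markers had 9 of 17 members called higher and none lower (median 1.04), 2 of them from below the gap, and without DP1 6 were higher (median 0.93). The subunits of C1q, made by tissue macrophages, moved together, with 22.4, 16.2 and 15.1 in LL and 52.9, 43.1 and 59.9 in DP for C1QC (1.5), 30.5, 19.2 and 20.02 in LL and 57.9, 56.4 and 76.4 in DP for C1QA (1.43) and a change of 1.38 for C1QB. SPI1, the transcription factor of myeloid cells, rose by 1.53 (log2) from below the gap. For C1QA and C1QC each DP library exceeded each LL library. T and NK cell markers had 11 of 19 members called higher and 1 lower (median 1.31), 9 of the former from below the gap, and without DP1 9 were higher (median 0.93). NKG7, of cytotoxic granules, had 0.623, 0.362 and 0.314 in LL and 12.5, 6.47 and 6.82 in DP (2.7), and CD3G, of the T cell receptor complex, had 0.522, 0.343 and 0.3799 in LL and 13.8, 3.32 and 3.37 in DP (2.21, and 1.58 without DP1). DP1 was highest in both, with DP2 and DP3 still above LL, and both were on the low side of the gap in LL. LCK and CD247, which pass on the receptor's signal, were higher by 2.31 and 2.16 (log2) from below the gap, whereas CD7, which is linked to LOC108638312, was lower by -1.24. Interleukins and their receptors had 12 of 35 members called higher and none lower (median 0.76), 9 of them from below the gap, among them IL2RB (2.43), IL1RL1 (2.1) and IL17D (2.08). Chemokines and receptors had 9 of 31 members called higher and 4 lower (median 0.53), 4 of the former from below the gap, and without DP1 6 were higher and 2 lower (median 0.35). The number of chemokine genes called lower was 2 without DP2 and 1 without LL1. ACKR1, a chemokine-binding receptor of venules, had 0.984, 2.93 and 2.76 in LL and 16.4, 7.78 and 16.4 in DP (2.17), and CXCL10 and CXCR6 rose by 2.12 and 2.0 (log2) from below the gap. CXCL13, which attracts B cells, had 0.0402, 0.145 and 0.396 in LL and 23.4, 7.18 and 0.354 in DP (2.45), also from below the gap, and DP3 lay within the LL range. Chemokines of mucosal epithelium fell, CXCL17 with 7.03, 30.3 and 42.2 in LL and 0.438, 0.923 and 0.528 in DP (-3.78) and CCL28, which draws antibody-making cells to the gland, with 23.1, 34.2 and 11.3 in LL and 9.698, 5.11 and 4.32 in DP (-1.63). Genes of the interferon response had 11 of 29 members called higher and none lower (median 0.88), 8 of them from below the gap, with 0.342, 0.578 and 0.429 in LL and 3.704, 4.69 and 7.62 in DP for the antiviral gene MX1 (2.08), 15.4, 11.8 and 10.2 in LL and 19.6, 38.4 and 79.9 in DP for IFI6 (1.6) and changes of 2.22 for CMPK2 and 1.69 for RSAD2. MX1 and IFI6 were above LL in each DP library. With a pseudocount of 5, only 1 gene of the interleukins, 1 of the interferon response, 2 T and NK cell markers, 3 macrophage markers and 3 chemokine genes were called higher. In the fit of genes with 0.5 FPKM or more in both stages, the counts were 7 of 20 interleukin genes, 6 of 19 interferon response genes, 2 of 6 T and NK cell markers and 5 of 20 chemokine genes, the last of which was also 5 without LL2. That fit computed its scaling factors anew. With the factors of all genes, 3 of the same interleukin genes, 3 interferon response genes, 2 T and NK cell markers and 5 chemokine genes were called higher. Over all genes with a mean of 0.5 FPKM or more in both stages, the share called higher was 4.41%. Toll-like receptors and adaptors had 4 of 22 members called higher, all 4 from below the gap, and 1 lower, and their median of 0.04 was -0.06 relative to all genes with quantile normalization and -0.14 without LL2. The shares, 18.2% higher and 4.55% lower, compare with 13.8% and 8.79% of all genes. None of the 22 was called higher with a pseudocount of 5, and 2 were without DP3. The higher ones were TLR3, TLR8, IRAK2 and IRAK3 (1.79, 1.46, 1.02 and 1.62), and LY96, a cofactor of the endotoxin receptor, was lower (-1.06). Calls were lost for CD7, CCL28, TLR8, IRAK2 and LY96 without scaling, CD7, CXCL13, IRAK2 and LY96 with quantile normalization, LY96 with upper-quartile scaling, CXCL13 and IRAK2 in a fit of the 6 libraries alone, SPI1, LCK, CD247, IL1RL1, IL17D, CXCL10, CXCR6, MX1, CMPK2, RSAD2, TLR3, TLR8, IRAK2, IRAK3 and LY96 with a pseudocount of 5, LY96 when only genes with a mean of 0.5 FPKM or more in both stages were fitted, CCL28 without DP2, CD7, CCL28 and IRAK2 without DP3, CXCL13, CCL28 and LY96 without LL1, CXCL13, CCL28 and LY96 without LL2 and IFI6 without LL3.

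The lists of cell division, heat shock, the clock and the immediate early response had medians between 0 and 0.2. Cell division had 3 of 35 members called higher, MCM4, TYMS and TPX2 (1.41, 1.31 and 1.1), all from below the gap, and none lower, and its median of 0.04 was -0.6 without scaling and -0.39 with quantile normalization, relative to all genes. The share called higher, 8.57%, is below the 13.8% of all genes. The circadian clock had 4 of 20 members called higher and 1 lower (median 0.18), and over the members with 0.5 FPKM or more in both stages the median was -0.13 relative to all such genes. With a pseudocount of 5, 1 clock gene was called higher and no gene of cell division, of which 5 were higher without LL3. BHLHE40, a repressor of the clock, had 4.92, 4.48 and 7.28 in LL and 11.6, 18.3 and 21.96 in DP (1.46), a rise in every DP library. BHLHE41, ARNTL and CIART rose from below the gap (1.86, 1.63 and 1.43), and PER1, which is linked to VAMP2, was lower (-1.03). The immediate early response had 5 of 28 members called lower and 1 higher (median 0.2), and without DP3 6 lower and none higher (median -0.03). The balance turned without DP2, with 3 lower and 4 higher (median 0.29), and without LL2 and without LL3 3 were lower. ATF3, a stress-induced transcription factor, had 16.7, 19.4 and 10.2 in LL and 3.08, 2.48 and 6.51 in DP (-1.75), JUND and BTG2 were lower by -1.36 and -1.12 (log2), and KLF4 was higher (1.11). Of 35 cytosolic heat shock proteins and chaperones, 2 were called higher, HSPA6 and HSPB8 (1.31 and 1.2), the first from below the gap, and none lower (median 0.02). The share called higher was 5.71% in this list and 20% in the clock list, against 13.8% of all genes. In the immediate early list 17.9% were called lower, against 8.79% of all genes. Calls were lost for MCM4, TYMS, TPX2, CIART, PER1, ATF3, JUND, BTG2 and HSPA6 without scaling, TYMS, TPX2, PER1, JUND and BTG2 with quantile normalization, PER1 and BTG2 with upper-quartile scaling, KLF4 in a fit of the 6 libraries alone, MCM4, TYMS, TPX2, BHLHE41, ARNTL, CIART, PER1, BTG2, KLF4, HSPA6 and HSPB8 with a pseudocount of 5, PER1 and BTG2 when only genes with a mean of 0.5 FPKM or more in both stages were fitted, KLF4 without the filter on low values, TPX2 and PER1 without DP1, PER1, BTG2 and HSPA6 without DP2, KLF4 and HSPB8 without DP3, KLF4 without LL1, PER1, KLF4 and HSPB8 without LL2 and PER1 and BTG2 without LL3.

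Some genes with the largest rises belong to none of these lists. TRPV6 (chromosome 4, 14425410 to 14442209), an epithelial calcium channel, had the largest rise of the genes that met the naming rule, with 4.52, 1.79 and 1.92 in LL and 37.02, 18.04 and 77.5 in DP (log2 fold change 3.44, standard error 0.5, adjusted p = 0.000391). GALNT15, which starts O-linked glycans, had 0.844, 0.289 and 0.215 in LL and 8.39, 9.68 and 12.4 in DP (2.95), and MLPH, an adaptor of vesicle transport, had 0.301, 0.307 and 0.198 in LL and 6.84, 7.62 and 7.23 in DP (2.7). Their DP values were above LL in every library, and except for TRPV6 the LL means lay below the gap. CMTM3 had 0.201, 0.181 and 0.198 in LL and 6.65, 5.97 and 5.91 in DP (2.59), EVC, a protein of the primary cilium, had 0.241, 0.271 and 0.363 in LL and 5.63, 6.04 and 10.7 in DP (2.66), and DBN1, an actin-binding protein, had 0.181, 0.46999 and 0.793 in LL and 6.87, 4.77 and 14.9 in DP (2.62). EPHB6, RIMS1 and SPINK9 rose by 2.59, 2.63 and 2.63 (log2), with SPINK9 highest in DP1, and like CMTM3, EVC, DBN1 and TTR they were below the gap in LL. TTR, transthyretin, had 0.221, 0.868 and 0.446 in LL and 11.1, 48.9 and 0.945 in DP (2.83), so DP3 was close to LL2, and its call was among those lost, for TTR with quantile normalization, TTR in a fit of the 6 libraries alone, TTR without DP1, TTR without DP2, TTR without LL1 and TTR without LL3.

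The marker sums of the 13 cell types show which other cells the tissue held. Of these sums 5 were higher in DP and 8 lower, and none could pass 0.05 in the exact permutation test. Fibroblast markers, with 11 of 13 members tested called higher and none lower (median 1.91), had the largest rise of a sum (log2 difference 2.08, exact permutation test, p = 0.1), and their most abundant gene was COL3A1. Without DP3, 10 of 13 were called higher (median 1.45). FBLN1, a matrix protein on this list, had 15.9, 18.8 and 25.5 in LL and 66.9, 55.2 and 201 in DP (2.15). Macrophage markers summed to 221, 185 and 201 in LL and 389, 357 and 391 in DP (log2 difference 0.9, exact permutation test, p = 0.1), with C1QA the most abundant. The macrophage sums of DP lay close together and above all LL sums. The sum of T and NK cell markers differed by 0.73 (log2, exact permutation test, p = 0.2) and held CD7 as its most abundant gene, a gene linked to a neighbour, without which the difference was 1.61. Endothelial markers summed to 159, 155 and 189 in LL and 194, 216 and 299 in DP (log2 difference 0.47, exact permutation test, p = 0.1). PECAM1, linked to LOC102179516, was the most abundant, and without PECAM1 the difference was 0.72. Of the 16 endothelial members 1 was called higher, ECSCR (1.24), and this share of 6.25% is below the 13.8% of all genes. Basal and myoepithelial markers summed to 307, 402 and 374 in LL and 251, 602 and 742 in DP (log2 difference 0.43, exact permutation test, p = 0.4), with TAGLN the most abundant and 2 of 14 members called higher, TP63 (1.47) and TRIM29 (1.77), both from below the gap. The median of the 14 members was 0.32, or -0.1 without DP3, where 2 were called lower. Without DP1 it was 0.47, and 4 were called higher. With all libraries the share called higher, 14.3%, compares with 13.8% of all genes. DP1 had the lowest and DP3 the highest myoepithelial sum of all 6 libraries. Luminal markers had 1 of 15 members called higher, ERBB3 (1.17), and 1 lower, SPINT2 (-1.44), with KRT19 the most abundant. The calls that did not hold were those of TP63 and SPINT2 without scaling, SPINT2 with quantile normalization, ECSCR, TP63, TRIM29 and ERBB3 with a pseudocount of 5, ERBB3 without DP1, ERBB3 without DP2, ERBB3 without LL1 and ERBB3 without LL3. The part of these cell types in the gene results was not tested.

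Sums that were lower in DP mostly rested on 1 gene. Neutrophil markers summed to 1611, 1011 and 2109.6 in LL and 206, 101 and 193 in DP (log2 difference -3.24, exact permutation test, p = 0.1), of which LTF held most, and without LTF the difference was 0.09. The members called were LTF and CXCR1 (-1.31), both lower, of 9 tested (median 0.18, and -0.2 relative to all genes without scaling). The neutrophil median was -0.47 without DP1 and -0.61 without DP2, each over 7 members. B and plasma cell markers summed to 865, 514 and 211 in LL and 156, 149 and 51.4 in DP (log2 difference -2.09, exact permutation test, p = 0.1), mostly JCHAIN, without which the difference was -0.24, and CR2, a receptor of B cells, was called higher (1.23) from below the gap while the median of 8 members was -0.57. Of these 8 members, 1 was called lower with all libraries, 4 without DP1, 3 without LL3 and 2 without LL2. Neutrophil and plasma cell sums did not overlap between the stages, but they turn on genes that carry most of the sum. Skeletal muscle markers summed to 98.3, 105 and 96.02 in LL and 21.2, 17.3 and 85.3 in DP (log2 difference -1.62, exact permutation test, p = 0.1), and without the most abundant gene the difference was 1.32. Skin epidermis markers summed to 5.404, 5.69 and 6.21 in LL and 2.69, 2.67 and 2.52 in DP (log2 difference -0.9, exact permutation test, p = 0.1), with KRT10, linked to KRT12, the most abundant (-1.06), and KRT1, KRT2 and LOR at 0 in all 6 libraries. Without KRT10 the difference was 0.02. Adipocyte markers summed to 28.5, 38.8 and 41.999 in LL and 44.003, 26.2 and 35.5 in DP (log2 difference -0.06, exact permutation test, p = 0.8), with PNPLA2 the most abundant, and of 6 members tested RBP4 was called higher (2.39) from below the gap and LIPE, the hormone-sensitive lipase, lower (-1.49). The adipocyte sums overlapped. Schwann cell markers summed to 30.4, 34.5 and 52.5 in LL and 22.5, 24.4 and 46.8 in DP (log2 difference -0.36, exact permutation test, p = 0.5), with MBP the most abundant and S100B called higher (1.2) from below the gap. Red blood cell markers were below 1 in sum in every library, with AHSP the most abundant and ALAS2 and HEMGN at 0 throughout (log2 difference -0.5, exact permutation test, p = 0.1). In these cell type lists, calls were lost for CXCR1, CR2, KRT10, LIPE and S100B without scaling, CR2 and S100B with quantile normalization, KRT10 with upper-quartile scaling, CXCR1, CR2, KRT10, LIPE and S100B with a pseudocount of 5, KRT10 when only genes with a mean of 0.5 FPKM or more in both stages were fitted, CXCR1 and KRT10 without DP1, CR2 without DP3 and CXCR1 without LL1. With a library of its higher stage left out, too few libraries reached the filter to test C5 (LL), or IL6, LTBP2, CXCL13, IL1RL1, TLR8 and S100B (DP).

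**Figure D4:**
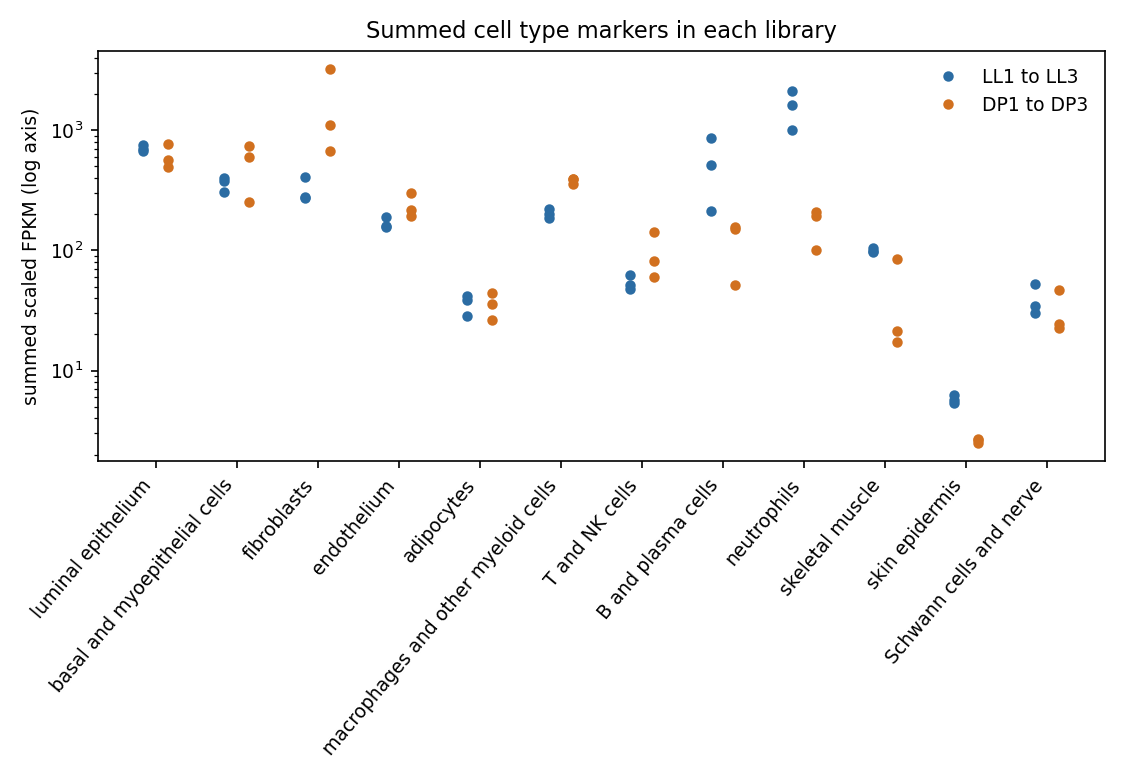
Summed scaled FPKM (vertical log axis) of the markers of 12 cell types in each of 3 LL libraries (blue) and 3 DP libraries (orange); red blood cell markers, below 1 in every library, are not drawn. DP3 is highest for fibroblasts and DP1 for T and NK cells.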

How the data were processed

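Values per gene were taken from the 9 columns of the deposited table, 6 of which (LL and DP) were compared. The unit is not written in the table, and the deposited numbers were treated as FPKM per gene from the authors. The submitters' processing notes list FastQC, Trimmomatic, HISAT2, SAMtools and HTSeq, and the study's methods describe StringTie for quantification, so how the deposited FPKM were derived is not certain. The study's methods give the reference by a BioSample accession, and a build name was not found in them. Of 23499 gene identifiers, 23465 were found in the RefSeq table of ARS1.2, each with equal start and end. 3078 genes were at 0 in every library. Whole-read steps were not recovered from low values, so the depth per library is unknown.

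FPKM were divided by median-ratio factors, 1 was added and log2 was taken. limma 3.58.1 in R 4.3.3 (eBayes with a mean-variance trend) was fitted to all 9 libraries without covariates, after a check on simulated data. Replicates are separate goats. Marker sums were compared by two-sided exact permutation tests, and lists were counted, with numpy 2.4.6 and pandas 2.3.3 (Python 3.11.15). Lists were not tested, and their members, like the comparison, were chosen with earlier results of these data known. List counts leave out the 5 milk protein and 12 PPAR genes.

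The genes named are the 15 with the largest change in each direction among those called that had a symbol, a mean of 2 FPKM or more in the higher stage, no overlap between LL and DP and no linked neighbour, up to 4 called genes per list in its main direction and up to 2 in the other, the 5 linked groups with the highest levels among those with 2 or more genes that have a symbol, linked groups holding a named gene, and CSN2 and LALBA as a check. The floor of 2 FPKM was read on deposited means. These rules gave 216 genes, not all of which are printed. BAX, FTL, RPL36AL, DNAAF2 and MGAT2 were picked after their values were seen.

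The search for linked genes took genes whose values ranged over 0.5 FPKM or more, a minimum that was not part of the written plan. The search that allows for the fixed amounts, the pseudocount of 5 and the fit of genes with a mean of 0.5 FPKM or more in both stages were chosen after seeing the data. Other alternatives were no scaling, quantile and upper-quartile scaling, a pseudocount of 0.1, other filters, the 6 libraries alone, no trend, a replicate block, each library left out, the tolerance of the linked search, linked genes left out, and sums without their most abundant gene.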

Additional observations from a re-analysis of the deposited data

How the results depend on the processing

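The number of genes called was 3321 and stayed between 2896 and 4483 with quantile or upper-quartile scaling, a pseudocount of 0.1, other filters, the 6 libraries alone, no trend or linked genes left out. It was 8348 without scaling (7979 higher, 369 lower) and 8359 at the adjusted p alone. With a pseudocount of 5, which damps changes of low genes, it was 1044 (288 higher, 756 lower), and among genes with a mean of 0.5 FPKM or more in both stages it was 1728 (828 higher, 900 lower), where fewer genes were tested and the scaling factors were computed from them alone; with the factors of all genes, 518 of the same genes were called higher and 1195 lower. Both of these were chosen after seeing the data. The count of higher calls thus depends on how genes of low level are treated, and the cause of the gap was not tested. With 1 library left out, 3075 to 3422 genes were called, 1861 to 2038 higher and 1214 to 1393 lower.

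With the replicate number as a block, 3340 genes were called. The numbers do not pair the goats, since deviations of LL and DP libraries of the same number correlated at 0.151, 0.00906 and 0.0929 across genes, which are not independent, and LL2 did not correlate best with DP2.

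Linked neighbouring genes numbered 625, 391 at a tolerance of 0.1% of the range, 1389 at 5%, 547 over the 6 libraries, and 1506 when the fixed amounts were allowed for. The number of list medians above that of all genes was 28 of the 51 lists with a tested member, and 24 to 27 with 1 library left out. Sums of markers were higher in DP for 5 of 13 cell types, for 9 without scaling and for 10 without the most abundant gene.

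List medians are given here relative to all genes. Quantile normalization turned those of ribosomal proteins (0.22), translation factors (0.0078), the proteasome (0.075), cell division (-0.39) and skeletal muscle (-0.037), and no scaling that of cell division (-0.60). Skeletal muscle was also turned by a filter of 2 FPKM (-0.92) and, like the circadian clock (-0.13), among genes of 0.5 FPKM or more in both stages (-0.74). Leaving out 1 library gave -0.071 (without LL3) to 0.051 for lysosomal genes, -0.14 (without LL2) to 0.13 for Toll-like receptors, -0.36 (without DP1) to 0.41 for antimicrobial proteins, -0.090 to 0.23 for luminal epithelium and -0.60 to 0.40 for neutrophils (the low ends of the last pair without DP2). A sign was counted as turned only where the median moved by more than the spread between replicates. Marker sums that turned were luminal epithelium (1.17), adipocytes (1.31), skin epidermis (0.22) and Schwann cells (1.01) without scaling, which includes the shift of 1.09, and adipocytes (0.14), neutrophils (0.093), red blood cells (0.044), skeletal muscle (1.32) and skin epidermis (0.019) without the most abundant gene. RPL13A (0.22) and B2M (4.07) turned with quantile normalization. The causes were not tested.

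Of 216 genes that met the naming rule, 30 lost their call when some library was left out, 9 could not be tested in some such fit because too few libraries reached the filter, and 178 kept every call. The call was lost for 71 without scaling, 43 with quantile normalization, 16 with upper-quartile scaling and 70 with a pseudocount of 5. Without scaling, the changes of named genes were read relative to the shift of all genes, with the adjusted p of the unshifted fit. Losses of lower calls in that setting can thus come from the shift alone. The block and a pseudocount of 0.1 ended no call of a named gene.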
